A study of Mus musculus with 57 samples.

Results

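Calr, Canx, Pdia3, Hyou1 and Dnajc3 encode chaperones that fold new secretory proteins in the endoplasmic reticulum. They were chosen by name, with earlier results of these data known, among the 9780 targets of the deposited table, where all 5 were measured. The GeoMx Whole Transcriptome Atlas was read in 57 regions of mouse pancreas: probes with barcodes are bound to the RNA of a section, and light frees the barcodes of a chosen area for sequencing. The mice were of the C57BL/6 strain, 8 to 9 weeks old. Pancreatitis had been caused with caerulein, a peptide that drives acinar cells, which make the digestive enzymes, through the cholecystokinin receptor, given into the peritoneum every hour over 8 hours on 2 days in a row. The control group held 7 regions, and the groups labelled 3, 12, 24, 48 and 72 hours held 3, 6, 6, 5 and 4. The groups of 5, 7, 14 and 30 days held 6, 6, 7 and 7 regions. The labels do not state the event from which these times run or whether controls were given sham injections. The tissue was fixed in formalin, embedded in paraffin, placed on 2 tissue arrays and cut at 5 µm, and each region was a square about 650 µm on a side that held every cell type within it. No genotype or transgene other than the strain is named in the labels.

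Secretory proteins enter the endoplasmic reticulum unfolded. Those that carry sugar chains are held by the lectin chaperones calnexin (Canx, bound to the membrane) and calreticulin (Calr, free in the lumen), while the disulfide isomerase ERp57 (Pdia3), which both lectins recruit, joins their cysteines. Other chains are bound by the Hsp70 protein BiP (Hspa5): Hyou1, also called Grp170, exchanges the nucleotide of BiP, and Dnajc3, also called P58IPK, is a J-domain partner that brings it unfolded chains. Acinar cells make large amounts of digestive enzymes and are rich in this machinery, and the unfolded protein response raises its genes through a promoter element called ERSE.

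The stretches of 4 promoters that come closest to that element are shown because it was found in members whose RNA moved in opposite directions in the reported fit at 24 hours. For Dnajc3, which fell there, the direction depended on the scaling of the counts, as given below. Its call was lost in each of 4 fits that left out part of the data. They are taken from RefSeq (GRCm38.p6) and written 5′ to 3′ on the strand of the gene, with the fixed letters of the element that were matched in capitals.
Calr: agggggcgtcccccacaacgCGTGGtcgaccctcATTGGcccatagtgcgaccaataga
Canx: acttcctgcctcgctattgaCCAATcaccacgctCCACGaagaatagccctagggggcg
Dnajc3: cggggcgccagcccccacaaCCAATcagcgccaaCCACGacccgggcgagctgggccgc
Pdia3: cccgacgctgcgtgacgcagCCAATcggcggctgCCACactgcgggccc
The element searched was CCAAT and CCACG with any 9 bases between them, on both strands of the 250 bases before the start. It was matched in full in Calr, where it lies on the opposite strand (chr8:84847055-84847113), in Canx (chr11:50325780-50325838) and in Dnajc3 (chr14:118937807-118937865). Pdia3 (chr2:121413853-121413901) came within 1 letter, G19A counted from 1 at the 5′ end of the element. Hyou1 had no entry in the promoter sequences used and was not searched, so whether it holds the element is not known here. A full match was found in 37 of 32851 promoter windows, or 0.113% of them. The related elements ATTGG and CCACG with 1 base between them, and TGACGTGG, which lie in 0.0304% and 0.563% of windows, were not found in these 4. A match is a description of the letters and not a site shown to be used.

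Each member was read by 1 probe, and the probe annotation places all 5 inside their genes on GRCm38.p6. The Calr probe lies at chr8:84844067-84844106, the Canx probe at chr11:50298160-50298205 and the Pdia3 probe at chr2:121414111-121414148. The Hyou1 probe lies at chr9:44381256-44381297 and the Dnajc3 probe at chr14:118957889-118957928. Exon and intron limits were not used here.

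Depth per region, as the sum of all target counts, ran from 1036609 to 5035488 with a median of 2036021, and array 2 was the deeper. No label links a region to its animal, and each tissue gave 2 to 4 regions. For this reason the regions of each group were summed on either array, and these 20 sums, 2 in each group, were the samples of every test, and p-values reflect the spread from sum to sum alone, which may be technical. On array 1 the groups of 3 and 72 hours had 1 region each. All 22 measured acinar markers exceeded 2 times the negative probes in most control regions, and these markers held 17.7 to 24.2% of all counts there. The region of replicate 1 at 12 hours on array 1 stood apart, with 2.06% of its counts in islet markers against at most 0.183% in the others of its group. Background is measured by probes that match no transcript, and the level of a member is given below as a multiple of these negative probes.

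In control tissue all 5 members lay close to that background. The Calr level was 1.80 ± 0.14 times the negative probes (SD, n = 7 regions) and the Canx level 1.49 ± 0.22 times. Pdia3 stood at 2.42 ± 0.14 times and was the only member over 2 times the negative probes in all 7 control regions. Hyou1 stood at 1.61 ± 0.12 times and Dnajc3 at 1.82 ± 0.12 times. These levels are not compared between genes, since each depends on its own probe. Calr, Canx, Hyou1 and Dnajc3 passed the filter of 2 times background in at least 3 regions only through regions of treated mice. Calr exceeded that level in 1 of 7 control regions, and Canx, Hyou1 and Dnajc3 each in 0 of 7. Calr and Canx each did so in all 6 regions at 12 hours and all 6 at 24 hours. Canx did so elsewhere only in 1 region at 3 hours and 1 at 72 hours. It was thus tested mainly because of the times at which its rise is reported. Hyou1 did so in 4 of 6 regions at 5 days and 3 of 7 at 30 days, and Dnajc3 in 3 of 6 and 3 of 7. The median number of targets over that level per region was 686 in control, 1585.5 at 12 hours and 1582.5 at 24 hours. The shares of tested targets that rose at these times therefore depend on the filter too.

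**Figure D1:**
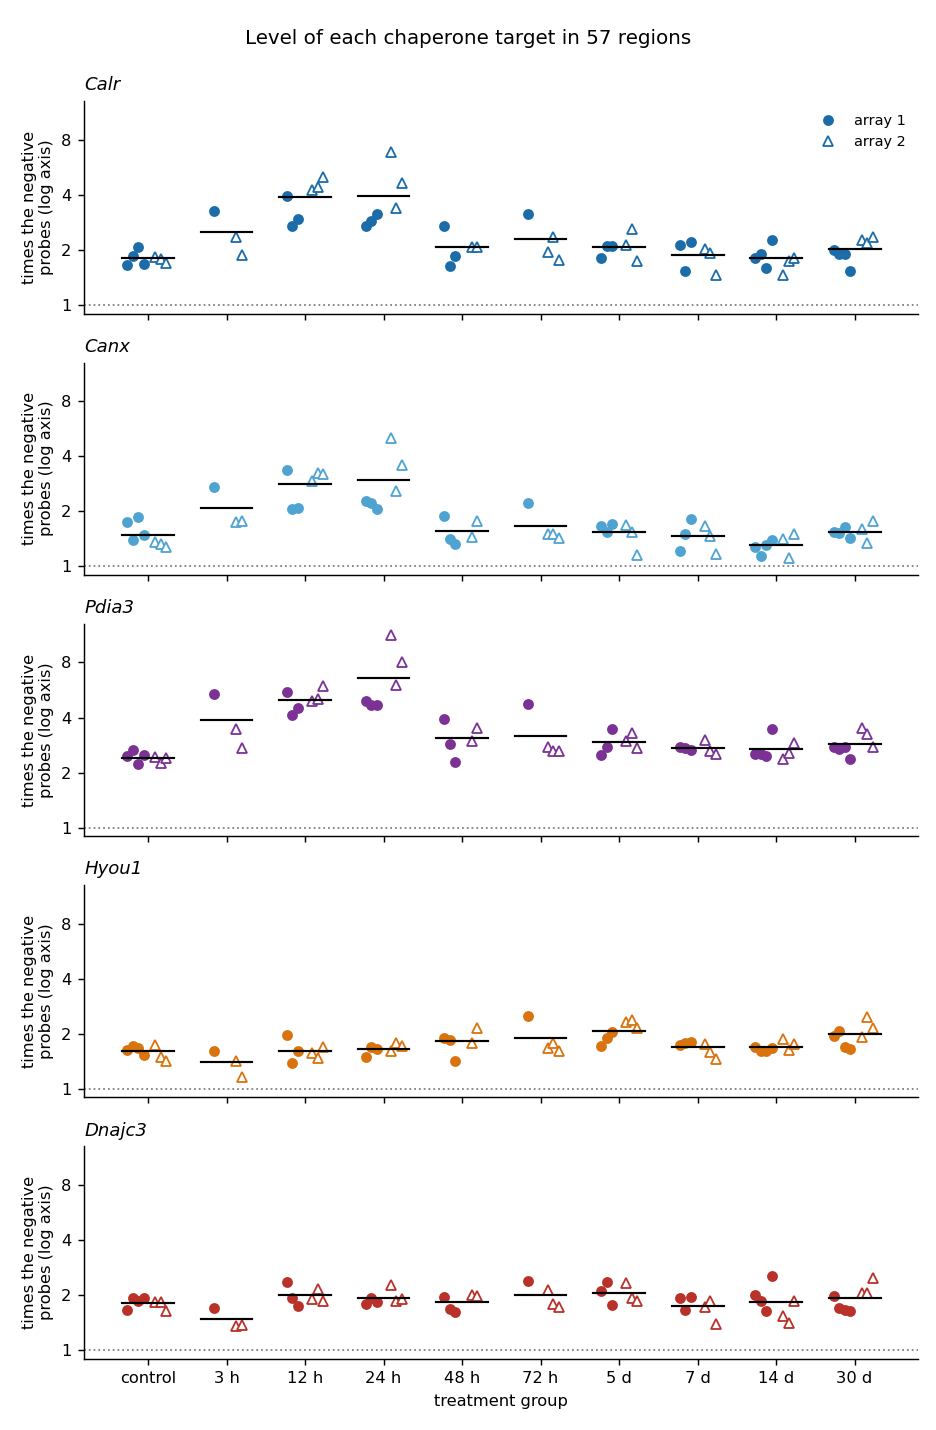
Level of each target in every region as a multiple of the negative probes (log axis, the dotted line at 1 is background), by treatment group; filled circles are regions of array 1, open triangles regions of array 2, and bars are group means. Calr, Canx and Pdia3 at 12 and 24 hours lie above all 7 control regions, a count not made for all targets. Hyou1 and Dnajc3 stay between 1 and 3 times background throughout.

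Calreticulin, the soluble lectin, ran from 1.66 to 2.07 times the negative probes in control, with a median of 1.80. At 12 hours the lowest region stood at 2.71, the median at 4.09 and the highest at 5.00, and at 24 hours they stood at 2.72, 3.26 and 6.86. Every region of both times was above every control region. Here and below, how many of all targets did so was not counted. On this scale the middle of all tested targets rose too. Its log2 difference was 0.40 at 12 hours and 0.44 at 24 hours, and 1603 and 1724 of the 2688 tested targets were called higher. Full separation from control is therefore not read, here or below, as particular to the members. The Calr mean was 3.88 ± 0.89 times (SD, n = 6) at 12 hours and 3.94 ± 1.59 (n = 6) at 24 hours. Later means were 2.07 ± 0.39 (48 hours, n = 5), 2.301 ± 0.612 (72 hours, n = 4) and 2.08 ± 0.31 (5 days, n = 6). In order of the means, 24 and 12 hours came first and did not differ beyond their spread, 12 hours and 3 hours (2.50 ± 0.71, n = 3) differed by more than the larger SD, and no 2 neighbours below that did. Control and 14 days were lowest.

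Calnexin, the membrane lectin, ran from 1.27 to 1.87 times the negative probes in control with a median of 1.40. At 12 hours it ran from 2.05 to 3.38 with a median of 3.08, and at 24 hours from 2.07 to 5.05 with a median of 2.42. As for Calr, all 12 regions of the 2 times lay above all control regions, a count not made for all targets. The means were 2.82 ± 0.60 (n = 6) and 2.97 ± 1.16 (n = 6), against 1.57 ± 0.24 (n = 5) at 48 hours. The order matched that of Calr at its upper end, with 24 hours, 12 hours, 3 hours (2.08 ± 0.55, n = 3) and 72 hours (1.66 ± 0.37, n = 4), and only the step from 12 to 3 hours exceeded the larger SD. The lowest mean was that of 14 days, 1.31 ± 0.14 (n = 7).

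Pdia3, the isomerase that works with both lectins, ran in control from 2.22 to 2.64 times the negative probes with a median of 2.44. Its 3 regions at 3 hours stood at 5.36 on array 1 and at 3.48 and 2.74 on array 2, all above control. At 12 hours it ran from 4.11 to 5.98 with a median of 4.99. At 24 hours the regions of array 1 stood at 4.95, 4.70 and 4.70 and those of array 2 at 11.3, 6.01 and 8.03. Array 2 was thus higher in each of its regions, and neither array overlapped control, a comparison not made for all targets. The 24-hour mean was 6.61 ± 2.61 (n = 6), the 48-hour mean 3.101 ± 0.622 (n = 5) and the 14-day mean 2.69 ± 0.38 (n = 7), and control was the lowest group. No 2 neighbours in the order of means differed by more than the larger SD.

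Hyou1, the nucleotide exchange factor of BiP, ran from 1.42 to 1.75 times the negative probes in control with a median of 1.64. At 24 hours it ran from 1.49 to 1.79 with a median of 1.68, inside or just above the control range, and the 3 regions at 3 hours stood at 1.61, 1.42 and 1.17. Its highest mean came at 5 days, 2.09 ± 0.26 (n = 6), where 5 of 6 regions exceeded every control region, and the next at 30 days, 1.99 ± 0.28 (n = 7), where 5 of 7 did. Such counts were not made for all targets. No 2 neighbours in the order of Hyou1 differed by more than the larger SD.

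Dnajc3, the J-domain partner of BiP, ran from 1.64 to 1.94 times the negative probes in control with a median of 1.84. Its regions at 3 hours stood at 1.70, 1.36 and 1.38, of which 2 lay below every control region. At 12 hours it ran from 1.74 to 2.36 with a median of 1.93, and at 24 hours from 1.78 to 2.29 with a median of 1.88. The lowest mean was that of 3 hours, 1.48 ± 0.19 (n = 3), which differed from the next, 7 days at 1.76 ± 0.21 (n = 6), by more than the larger SD. The highest was 5 days, 2.06 ± 0.25 (n = 6).

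Read in the authors' Q3-normalised signal, in which each region is scaled to its 75th percentile, Calr, Canx and Pdia3 were again higher at 24 hours, while Hyou1 and Dnajc3, which had not been lower as multiples of the negative probes, were lower. The Pdia3 signal was 216 ± 12.8 in control (SD, n = 7) and 482 ± 157 at 24 hours (n = 6), Calr 161 ± 11.1 and 287 ± 94.6, and Canx 133 ± 17.3 and 216 ± 69.2. Hyou1 stood at 143 ± 7.96 in control and 123 ± 10.5 at 24 hours, and Dnajc3 at 162 ± 9.65 and 143 ± 5.45.

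All comparisons with control share its 2 sums. The groups were compared with edgeR on the 20 sums, scaled by the trimmed mean of M-values (TMM), so that a change is relative to the middle of the 2688 targets tested. At 12 hours the lectins and Pdia3 rose and Hyou1 fell. Calr stood at 138 and 144 CPM (counts scaled to a common library total) in the control sums of arrays 1 and 2 and at 186 and 269 in those of 12 hours, 1.61-fold higher (log2 difference 0.69 ± 0.19 SE, 2 sums against 2, adjusted p = 0.00927 by edgeR). Both 12-hour sums were above both control sums. Canx rose 1.45-fold (0.53 ± 0.16, edgeR adjusted p = 0.0147) and Pdia3 1.54-fold (0.62 ± 0.22, adjusted p = 0.034). Hyou1 stood at 126 and 123 CPM in control and at 96.6 and 94.4 at 12 hours, 0.766 times the control level (-0.38 ± 0.13, edgeR adjusted p = 0.0235). Dnajc3 differed by -0.27 ± 0.11 and did not pass the threshold of 0.05 (edgeR adjusted p = 0.0639). So 4 of 5 members passed, where 42.9% of all tested targets did, and 3 of 5 rose, where 21.8% rose. Of the 2688 targets 565 fell. The median log2 difference of the members was 0.53, which is the value of Canx, and that of all tested targets was -0.015. The members were chosen with earlier results of these data known, so these shares and medians are a description and not a test.

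At 24 hours all 5 members passed the test, 3 upward and 2 downward. Pdia3 stood at 189 and 193 CPM in control and at 293 and 472 at 24 hours, 1.99-fold higher (log2 difference 1.00 ± 0.22 SE, edgeR adjusted p = 0.00294). Calr rose 1.61-fold (0.69 ± 0.19, adjusted p = 0.00911), from 138 and 144 to 178 and 278. Canx rose 1.52-fold (0.60 ± 0.16, adjusted p = 0.00789), from 122 and 107 to 135 and 210. Array 2 gave the larger rise of each of the 3. Hyou1 fell to 0.787 times control (-0.35 ± 0.13, edgeR adjusted p = 0.0385), with 100 and 96.2 CPM against 126 and 123. Dnajc3 fell to 0.80 times control (-0.32 ± 0.11, adjusted p = 0.0316), with 115 and 113 against 142 and 143. Over all tested targets 21.8% rose and 20.5% fell at 24 hours, and the median difference was 0.0022 against 0.60 for the members, again the value of Canx. With members chosen in this way, the comparison is a description and not a test.

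**Figure D2:**
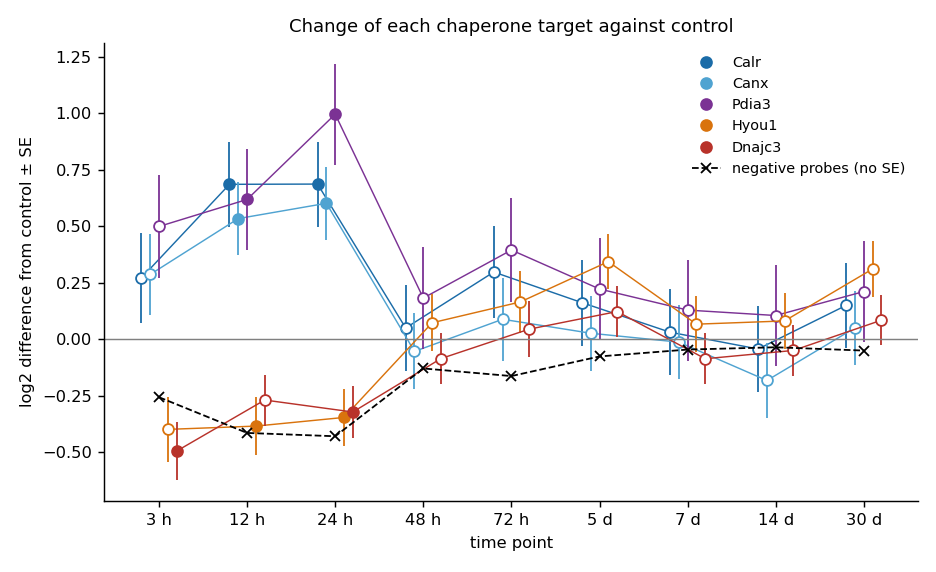
Log2 difference of each target from control at the 9 times, with the standard error as bars, from the edgeR fit scaled by TMM; filled points passed the test (adjusted p under 0.05), open points did not, and the dashed line gives the negative probes under the same scaling. Pdia3 peaks at 1.00 at 24 hours, and Hyou1 and Dnajc3 run close to the negative probes at 12 and 24 hours.

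The direction of the falls of Hyou1 and Dnajc3 depended on the scaling, while that of the rises did not, although their size did. Under TMM the negative probes themselves stood at -0.26, -0.41 and -0.43 against control at 3, 12 and 24 hours, about the size of these falls. Scaled to the negative probes, Hyou1 differed by 0.033 at 12 hours and 0.092 at 24 hours and Dnajc3 by 0.12 at 24 hours. Scaled to the total count, they stood at 0.19, 0.24 and 0.27. None of these 6 values passed the test. With the negative-probe value subtracted from every region before scaling, both falls grew, to -0.75 for Hyou1 (adjusted p = 0.0478) and -0.75 for Dnajc3 (adjusted p = 0.0232) at 24 hours by edgeR. With 75th-percentile scaling the 3 falls stood at -0.22, -0.20 and -0.17 and did not pass either. Calr, Canx and Pdia3 were above control at both times in every alternative tried, with values from 0.56 to 1.29 for Calr, 0.49 to 1.19 for Canx and 0.88 to 1.60 for Pdia3 at 24 hours where no sum was left out. All of these passed, while at 12 hours the rise of Pdia3 missed the threshold with background subtracted (0.54, edgeR adjusted p = 0.105), without the array term (adjusted p = 0.0692) and with the 2 groups fitted alone (adjusted p = 0.0534).

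**Figure D3:**
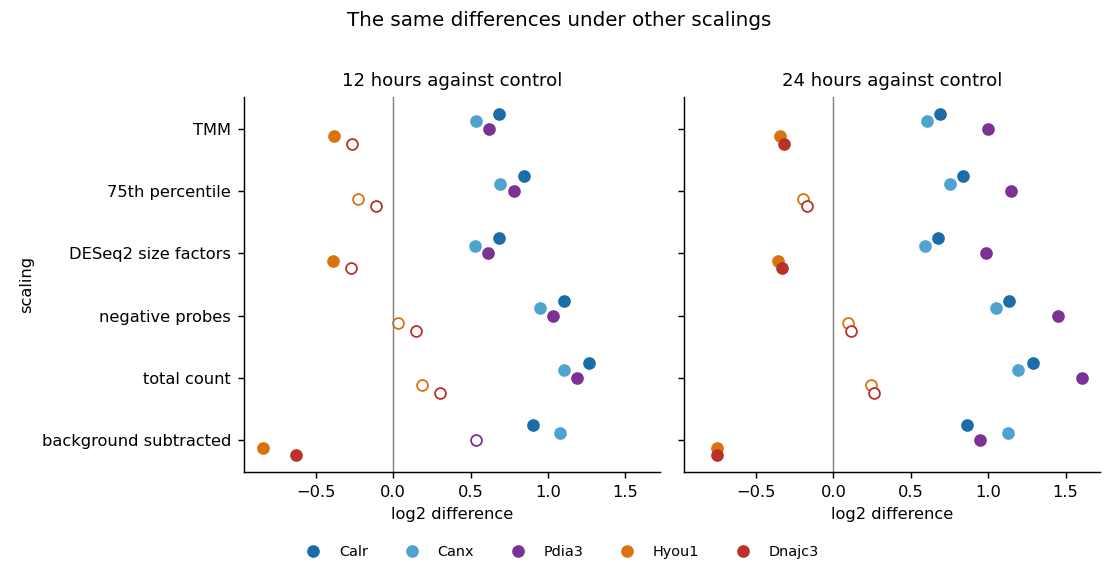
Log2 difference from control at 12 and 24 hours for each target (horizontal axis) under 6 ways of scaling the counts (rows); filled points passed the test and open points did not. Calr, Canx and Pdia3 lie to the right of 0 in every row, and Hyou1 and Dnajc3 cross 0 with negative-probe and total-count scaling.

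The rises of Calr, Canx and Pdia3 differed in size between the arrays. At 24 hours the within-array log2 differences of array 1 and array 2 were 0.37 and 0.95 for Calr, 0.14 and 0.97 for Canx and 0.63 and 1.29 for Pdia3. For Hyou1 they were -0.33 and -0.35 and for Dnajc3 -0.30 and -0.33. Without the 24-hour sum of array 2, 0 of 5 members passed the test and Pdia3 stood at 0.60 (edgeR adjusted p = 0.115). Without the control sum of array 2, 1 passed, and without that of array 1, 3 passed. At 12 hours the count fell from 4 to 0 without the 12-hour or the control sum of array 2 and to 2 without the control sum of array 1. The 24-hour call of Dnajc3 was lost in each of the 4 fits without 1 sum (edgeR adjusted p from 0.0513 to 0.199), as was the 12-hour call of Pdia3 (0.0535 to 0.197). Directions did not turn in any of these fits.

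The test of the difference between members does not depend on the scaling. Of 10 pairs, 6 differed in their change at 12 hours and 6 at 24 hours, and in both cases these were the pairs of Hyou1 or Dnajc3 with Calr, Canx or Pdia3. At 24 hours Hyou1 moved by -1.30 ± 0.27 (SE) on the log2 scale relative to Pdia3 (limma adjusted p = 0.000537) and by -0.99 ± 0.25 relative to Calr (adjusted p = 0.00659). Dnajc3 moved by -1.28 ± 0.27 relative to Pdia3 (limma adjusted p = 0.000589) and by -0.88 ± 0.24 relative to Canx (adjusted p = 0.00878). Among the other pairs, Pdia3 minus Calr was 0.30 ± 0.23 and Dnajc3 minus Hyou1 0.020 ± 0.21, and neither passed (limma adjusted p = 0.234 and 0.951). Such differences were common: 63.0, 45.7 and 46.5% of all tested targets changed relative to Calr, Canx and Pdia3 at 12 hours, and 58.4, 49.6 and 84.0% at 24 hours. The 6 of 10 pairs are therefore not read as a split particular to these members. Without the control or the 12-hour sum of array 2, 0 of 10 pairs passed at 12 hours, and without the control or the 24-hour sum of array 2, 2 of 10 passed at 24 hours.

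At 3 hours the 5 directions were those of 12 hours, and only Dnajc3 passed the test. Dnajc3 stood at 101 and 101 CPM against 142 and 143 in control, 0.71 times that level (log2 difference -0.49 ± 0.13 SE, edgeR adjusted p = 0.0169). Hyou1 stood at 95.95 and 94.96 (-0.40 ± 0.14, adjusted p = 0.0861). Pdia3 differed by 0.50 ± 0.23 (adjusted p = 0.178), Canx by 0.29 ± 0.18 and Calr by 0.27 ± 0.20. At this time 3.76% of tested targets fell and 7.63% rose. The call of Dnajc3 was lost with total-count scaling (-0.088), with negative-probe scaling (-0.27, edgeR adjusted p = 0.239) and when any of the 4 sums was left out. Of the 10 pairs, 2 differed, Dnajc3 against Canx (-0.83 ± 0.24) and against Pdia3 (-0.98 ± 0.27), where 4.58 and 4.54% of all tested targets changed relative to Canx and Pdia3 and 3.98% relative to Calr. The count was 0 without either control sum or the 3-hour sum of array 1.

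Between 24 and 48 hours Calr, Canx and Pdia3 fell and Hyou1 rose, each toward its control level. Pdia3 fell by 0.81 ± 0.22 on the log2 scale (edgeR adjusted p = 0.0208), Canx by 0.66 ± 0.16 (adjusted p = 0.014) and Calr by 0.64 ± 0.19 (adjusted p = 0.0285). The Pdia3 sums stood at 203 and 232 CPM at 48 hours, below both 24-hour sums. Hyou1 rose by 0.42 ± 0.13 (edgeR adjusted p = 0.0342), from 100 and 96.2 to 121 and 141, while Dnajc3 differed by 0.24 ± 0.12 (adjusted p = 0.16). In this step 11.7% of all tested targets fell and 5.84% rose, and the negative probes differed by 0.30. The rise of Hyou1 was 0.11 with negative-probe scaling (edgeR adjusted p = 0.574), 0.30 with total-count scaling and 0.32 with 75th-percentile scaling, and did not pass with any of these. All 4 calls were lost without the 24-hour sum of array 2 or without either 48-hour sum. In the other steps between neighbouring times no member passed: 12 against 3 hours, where 0.781% of all targets did, 24 against 12 hours (1.08%), 72 against 48 hours (0%) and 5 days against 72 hours (0.0744%). The members with an unadjusted p under 0.05 in those 4 steps numbered 0.

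From 48 hours on no member differed from control at the threshold by edgeR, and few targets did. Their share was 1.67% at 48 hours and 1.08% at 72 hours. On day 5 it was 0.372%, on day 7 0.0372%, on day 14 0% and on day 30 0.0372%. The 95% interval of the Pdia3 difference at 48 hours ran from -0.29 to 0.66 and that of Calr from -0.35 to 0.45. The largest difference was that of Pdia3 at 72 hours, 0.40 ± 0.23 (edgeR adjusted p = 0.504). Hyou1 stood at 0.34 ± 0.12 at 5 days (unadjusted p = 0.0124, edgeR adjusted p = 0.424) and 0.31 ± 0.12 at 30 days (unadjusted p = 0.0215). Its sums stood at 138 and 177 CPM at 5 days and at 137 and 173 at 30 days, each above the 126 and 123 of control. These were the only unadjusted p-values under 0.05 among the 30 of the 5 members in those 6 comparisons. At 72 hours the region of array 1 was the highest of its group for all 5 members. Tested for any change over the 9 times, all 5 members passed, with edgeR adjusted p-values from 0.000876 for Hyou1 to 0.0228 for Pdia3, where 42.1% of all tested targets passed.

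Over the 20 sums the members fell into 2 sets. By Pearson correlation of log2 CPM, Canx and Pdia3 were the targets most like Calr among 2687 (r = 0.927 for each), followed by Jund at 0.919. Most like Canx after Calr were Dab2 (0.924) and Gm6570 (0.923), and most like Pdia3 after Calr were Rhob (0.925) and Itm2b (0.922). Hyou1 was most like Derl3 (0.927), which takes part in the disposal of misfolded proteins, then Mcfd2 and Nucb2 (0.898 for each), and its correlation with Dnajc3 was 0.894. Dnajc3 was most like Hyou1, then Derl3 and P4hb (0.889 for each). Between the sets r ran from -0.56 for Canx and Hyou1 to -0.33 for Calr and Dnajc3. With the negative probes r was -0.82, -0.85 and -0.88 for Calr, Canx and Pdia3 and 0.65 and 0.58 for Hyou1 and Dnajc3. These sums share their arrays and their depth, and the values are a description.

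The other genes of the pathway were read from 8 lists chosen with earlier results of these data known. Their counts are relative to the middle of all tested targets. At 24 hours 21.8% of all 2688 tested targets rose and 20.5% fell, and at 12 hours 21.8% rose and 565 targets fell. Scaled to the total count, the median of all targets at 24 hours was 0.59. Of the 2688 targets 2087 were then called, 2047 of them higher. Scaled to the negative probes the median was 0.44, with 1773 of the 2688 called and 1724 of them higher. Each list then held more rises or fewer falls, as given below. Of 6 tested Hsp70 and Hsp90 chaperones of the endoplasmic reticulum and their partners, 0 passed at 12 hours and Sec63, a partner of the translocon, rose at 24 hours (log2 difference 0.32 ± 0.11, edgeR adjusted p = 0.0291). Hspa5, which encodes BiP, and Hsp90b1, its Hsp90 counterpart, are named although neither passed by this fit, a choice made with their values known. Hspa5 stood at -0.015 ± 0.17 at 12 hours and 0.048 ± 0.17 at 24 hours, and Hsp90b1 at 0.34 ± 0.26 at 24 hours. Scaled to the total count all 6 of this list were higher at 24 hours, with Hspa5 at 0.64 (edgeR adjusted p = 0.00437) and Hsp90b1 at 0.93 (adjusted p = 0.00424), and scaled to the negative probes 3 were. Of 10 tested disulfide isomerases and oxidases, the family of Pdia3, 0 rose and 6 fell at 24 hours, and their median was -0.48. Scaled to the total count 3 rose and 2 fell, with a median of 0.10, and scaled to the negative probes also 3 and 2. Pdia2, the isomerase of the acinar pancreas, fell most (-2.95 ± 0.31, adjusted p = 4.96e-06), and Erp27 (-1.01 ± 0.17), the oxidase gene Ero1b (-0.82 ± 0.21) and Prdx4 (-0.62 ± 0.09) followed. Scaled to the total count, Pdia2 stood at -2.39 and Erp27 at -0.44, while Ero1b (-0.24, adjusted p = 0.222) and Prdx4 (-0.039, adjusted p = 0.812) did not pass.

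Among 4 tested partners of the calnexin cycle 2 rose and 1 fell at both times, and scaled to the total count 3 rose and 0 fell. Prkcsh, the regulatory subunit of the glucosidase that trims sugars for calnexin binding, rose by 0.58 ± 0.10 at 12 hours (edgeR adjusted p = 0.000592) and 0.49 ± 0.10 at 24 hours. Selenof, a partner of the enzyme that senses misfolded glycoproteins, rose by 0.56 ± 0.13 at 24 hours (adjusted p = 0.0035). Calreticulin and ERp57 also hold the empty class I histocompatibility molecule while it is loaded. The 4 tested targets of that list were B2m, H2-D1 and H2-K1, which encode the molecule itself, and Psmb9. Of these 3 rose and 1 fell at both times, and 3 and 0 did scaled to the total count. A change in the partners that load the molecule was thus not tested. B2m rose 3.85-fold at 24 hours (1.95 ± 0.24, edgeR adjusted p = 2.4e-05), and H2-D1 and H2-K1 rose 2.64-fold and 2.10-fold. Psmb9, a subunit of the immunoproteasome, stood at -0.53 ± 0.15 (adjusted p = 0.0118), which became 0.047 when scaled to the total count.

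Of 11 tested sensors and effectors of the unfolded protein response, 3 rose and 4 fell at 12 hours, and 2 rose and 4 fell at 24 hours. On the total-count scale 6 rose and 0 fell at 24 hours. Xbp1, a factor that acts on the ERSE, rose by 0.96 ± 0.21 at 12 hours (edgeR adjusted p = 0.00223) and stood at 0.34 ± 0.21 at 24 hours, where it did not pass. Eif2ak3, the kinase PERK, rose by 0.66 ± 0.15 at 12 hours and 0.73 ± 0.15 at 24 hours. Atf6, whose product also acts on that element, differed by -0.38 ± 0.10 at 24 hours (adjusted p = 0.00914), and this became 0.22 when scaled to the total count. In the list of degradation genes 1 of 9 rose and 5 fell at 12 hours, and 1 rose and 4 fell at 24 hours, led by Derl3 (-1.31 ± 0.20 and -1.21 ± 0.20). On the total-count scale 3 rose and 1 fell at 24 hours. In the prolyl isomerases and collagen chaperones 1 of 4 rose and 2 fell at both times: the collagen chaperone Serpinh1 rose 3.39-fold at 24 hours (1.76 ± 0.20, adjusted p = 8.55e-06) and Fkbp11 fell (-0.75 ± 0.13). With total-count scaling 2 rose and 0 fell at 24 hours. Of 19 tested translocon targets 2 rose and 2 fell at 12 hours, and 1 rose and 3 fell at 24 hours. With total-count scaling 15 of the 19 rose and 0 fell at 24 hours, and scaled to the negative probes 11 and 0.

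**Figure D4:**
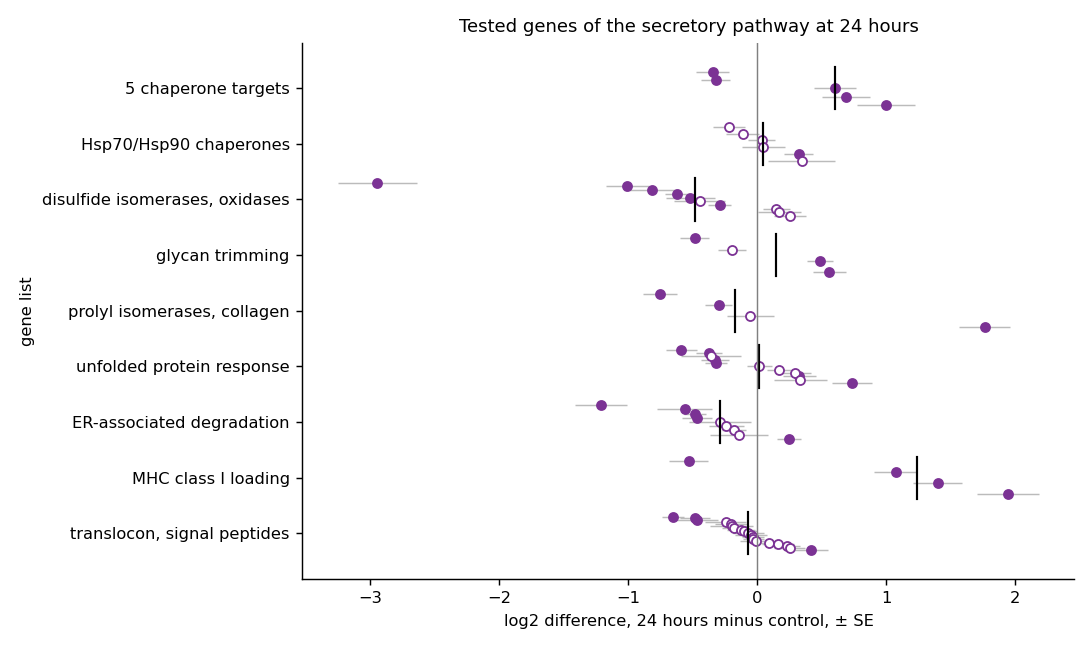
Log2 difference from control at 24 hours with its standard error (horizontal axis) for every tested target of 8 secretory pathway lists and the 5 chaperones (rows); filled points passed the test, open points did not, and the vertical bar in each row is the median. The 5 chaperones lie on both sides of 0, the disulfide isomerases mostly below it and the targets of the class I list mostly above.

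Of 9 tested targets with a full ERSE match, 3 rose and 2 fell at 12 hours, and 2 (Calr and Canx) rose and 3 (Dnajc3, Derl3 and Ero1b) fell at 24 hours, these 5 being named with their values known. Among the 2178 tested targets with a promoter window, 479 rose and 452 fell at 12 hours and 471 rose and 449 fell at 24 hours. With 9 targets these counts are not read as a difference from that background.

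The shares of counts held by cell type markers changed at the same times. Acinar markers held 6.93 to 9.63% of counts at 12 hours and 2.00 to 6.94% at 24 hours, against 17.7 to 24.2% in control, and 21 of 22 tested acinar markers fell at 24 hours. Ductal markers held 0.433 to 1.00% at 24 hours against 0.0687 to 0.0838% in control, with 9 of 11 tested markers higher. Fibroblast and stellate markers held 0.267 to 0.669% against 0.0877 to 0.117% (14 of 15 higher), and macrophage markers 0.179 to 0.494% against 0.0729 to 0.0908% (10 of 13 higher). Of all tested targets 21.8% rose and 20.5% fell at 24 hours. Marker shares at 24 hours differed between the arrays: fibroblast markers held 0.291% of the sum of array 1 and 0.559% of that of array 2, and acinar markers 6.45 and 2.86%. No marker of these 4 lists was at 0 counts in any region, since background gives counts to every probe, and 0 of 21 fibroblast and 0 of 18 macrophage markers exceeded 2 times background in most control regions. Between 24 and 48 hours 12 of 22 acinar markers rose and 10 of 15 fibroblast markers fell, where 5.84% of all tested targets rose and 11.7% fell. The part of these cell types in the changes of the 5 chaperones was not tested. In tissue regions fewer cells of a type and less RNA per cell cannot be told apart.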

How the data were processed

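The authors deposited a table of expected counts per target and region (deduplicated barcode counts from GeoMx NGS Pipeline 2.3.3.10, per the file headers), and 9777 of its 9780 targets are whole to within 1e-06. They also deposited a Q3-normalised signal, read counts and nuclei counts, a sequencing saturation in percent, and a probe table whose outlier score per probe was read. limma and mm10 appear in the submitters' processing notes with no role given. Quality control of regions and probes preceded deposit, per the labels, with thresholds that no label states.

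Counts were rounded and added over the regions of a group within each array. A target was tested where 3 or more of 57 regions gave over 2 times their negative-probe value (2688 targets). edgeR 4.0.16 (R 4.3.3) fitted a quasi-likelihood model with group and array as terms, TMM scaling and Benjamini-Hochberg adjustment over all tested targets, with a threshold of 0.05. The common dispersion was 0.0122. Differences between members were tested with limma 3.58.1 on log2 CPM of every target minus the reference member (90 pair tests, adjusted over all targets). Tables and plots used Python 3.11.15 with matplotlib 3.10.9. Both fits were tested on simulated data.

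The members and lists were chosen with earlier results of these data known. All 5 members are named. Of other lists at most 4 called genes with the largest change were named at a time, and for each member the 3 targets with the highest Pearson correlation. Alternatives were other scalings, subtraction of background, DESeq2 1.42.0, other filters, regions as samples with and without a replicate block, no array term, and each sum left out in turn. Between 1036609 and 5035488 counts stood behind each region, and 71 to 2436 behind each member's sum.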

Additional observations from a re-analysis of the deposited data

Results flagged for a closer look

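Of 45 sets of regions tested, each being 1 member in 1 group, 4 had 1 region that lay apart from the rest. The members share their regions, so these 4 are not set against a rate given by chance. At 72 hours the single region of array 1 was the highest for Canx, at 2.21 times the negative probes against 1.51 for the next, and for Pdia3, at 4.75 against 2.76. At 5 days the lowest Canx region, on array 2, stood at 1.16 times against 1.54 for the next. At 24 hours the highest Dnajc3 region, on array 2, stood at 2.29 times against 1.93. The same 24-hour region was also the highest of its group for Calr, Canx and Pdia3.

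The change from control differed between 24 and 48 hours for 4 members by the test of the step itself in edgeR. The log2 difference of 48 against 24 hours was -0.81 for Pdia3, -0.66 for Canx, -0.64 for Calr and 0.42 for Hyou1.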

How the results depend on the processing

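The number of the 5 members called at 3 hours, 1 by the reported fit, was 3 with total-count scaling, 0 with negative-probe scaling, 2 with background subtracted, 2 by DESeq2, 0 with no filter and 0 with the filter at the limit of quantitation. With regions as samples it was 3, with the random block 3, and 0 to 1 with a sum left out. At 12 hours the count of 4 became 2 without the array term and 0 to 3 with a sum left out. At 24 hours the count of 5 was 3 with total-count, 75th-percentile or negative-probe scaling, with either other filter and without the array term, and 0 to 4 with a sum left out. Total-count scaling called 3 members at 48 hours, 4 at 72 hours and 1 at 5 days, where the reported fit called 0, and it moved the median of all tested targets by 0.59 at 24 hours. The fit of the 2 groups alone called 1 at 5 days, and regions as samples called 1 at 5 days, at 30 days and in the steps from 3 to 12 and 12 to 24 hours. For 48 against 24 hours the count of 4 became 0 with background subtracted, 1 without the array term, 0 with the 2 groups alone and 0 to 4 with a sum left out. For any change the count of 5 was 3 with negative-probe scaling, with background subtracted and without the array term, and 4 to 5 with a sum left out. Of 10 pairs, 6 differed at 3 hours with background subtracted and 0 to 6 with a sum left out, 0 to 6 did at 12 hours and 2 to 6 at 24 hours.

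In 7 cases a direction called by the reported fit or by the alternative turned. With total-count scaling Hyou1 stood at 0.19 at 12 hours and 0.24 at 24 hours and Dnajc3 at 0.27 at 24 hours. With negative-probe scaling Hyou1 stood at 0.033 and 0.092 at these times and Dnajc3 at 0.12 at 24 hours. Dnajc3 at 48 hours was not called by the reported fit (-0.085, edgeR adjusted p = 0.783) and stood at 0.38 with total-count scaling. The cause was not tested. Among the other values of members, 1235 kept their side of the threshold, of which 68 were called in neither fit and differed in sign, 86 lost their call and 34 gained one.

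The labels do not say that replicate numbers pair the regions. The median correlation of deviations was 0.20 for regions with the same number and -0.063 otherwise, a hint from the data of pairing, but 68.6% and not all of the former exceeded 0.1, so the numbers were not taken as pairs. With regions as samples and the replicate block, the calls were 3 at 3 hours, 5 at both 12 and 24 hours, 1 at both 5 and 30 days, 1 between 12 and 24 hours and 5 between 24 and 48 hours.

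With 2 sums in a group and members at 1 to 3 times background in control, small changes were near the limit of detection, and intervals cover the spread between sums only.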
